A study of Mus musculus with 3 samples.

Results

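Reelin, its receptors Lrp8 (also called ApoER2) and Vldlr, and the intracellular adaptor Dab1 were described as 4 of the 31055 genes counted in single nuclei of the mouse olfactory bulb (OB). The genes were taken by name. The data were single-nucleus RNA counts from 3 adult C57Bl/6 mice, each made into 1 library. A retrograde AAV that drives a nuclear GFP (H2B-GFP) from the ubiquitous CAG promoter had been injected into the piriform cortex and the anterior olfactory nucleus, so that neurons with axons there would be labelled, and GFP-positive, DRAQ5-positive nuclei were then sorted. All 3 mice carried the same virus and formed 1 group with no untreated control, so every comparison below is between kinds of nuclei within the same animals.

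Reelin is a large secreted glycoprotein that binds Lrp8 and Vldlr, which belong to a family of lipoprotein receptors. Binding leads Src-family kinases to phosphorylate Dab1 on the cytoplasmic tails of the receptors, and the signal passes to PI3 kinase, the Crk adaptors and the cytoskeleton. The pathway is known for placing migrating neurons during cortical development and for tuning synapses in the adult, and mitral cells of the OB are a classical site of Reelin expression. Mitral and tufted cells are the projection neurons of the OB, whereas granule and periglomerular cells are inhibitory interneurons.

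The authors' deposited table placed 31703 nuclei in 22 clusters and divided 7504 excitatory nuclei again into 10 subclusters. Mouse 1, mouse 2 and mouse 3 gave 5845, 21105 and 4753 nuclei with 58526996, 213891496 and 62929479 UMIs (molecular barcodes, so that each counts 1 RNA once), and the median nucleus held 7940, 8420 and 10568 UMIs. From marker genes, 7 subclusters with 6346 nuclei were called M1-, M2- and M3-like (mitral) and T1-, ET1-, ET2- and ET4-like (tufted, ET standing for external tufted), and the suffix is dropped below. Subclusters 2 and 8 kept no name, and subcluster 9, with 89 nuclei, was periglomerular-like but also carried 598.5 to 806.6 CPM of projection neuron markers. Of the 22 clusters, 10 were inhibitory neuron-like and 5 projection neuron-like, and clusters 9, 11, 16, 19 and 20 resembled astrocytes, olfactory ensheathing glia, oligodendrocytes, oligodendrocyte precursors and microglia. Libraries of different mice shared 39 (mice 1 and 2), 8 (mice 1 and 3) and 35 (mice 2 and 3) cell barcodes, of which 6, 0 and 2 lay in the same cluster. Cluster 21 had 9 nuclei in mouse 1, under the minimum of 10, which left 21 clusters for the tests.

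The 4 loci differ in how much of them is transcribed and spliced away, which bears on counts from nuclei. In GENCODE M21 on GRCm38, Reln (ENSMUSG00000042453) is on the minus strand at chr5:21884454-22344702, a span of 460.2 kb of which 5.158% is exon. Dab1 (ENSMUSG00000028519) spans 1125.5 kb on the plus strand at chr4:103619359-104744844, with 0.703% in exons. Lrp8 (ENSMUSG00000028613, plus strand, chr4:107802261-107876840) and Vldlr (ENSMUSG00000024924, plus strand, chr19:27216484-27254231) are shorter, at 74.6 and 37.7 kb, with 14.098% and 26.672% in exons. Whether intronic reads were counted was not given in the sources used here, so levels are compared within a gene and not between genes.

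Because the projection neuron type with the least Reln had the most Vldlr (below), the 250 bases before a start site of each gene are shown. They run 5′ to 3′ on the gene's strand, from the RefSeq promoter table on GRCm38.p6, with a match to CACGTG (an E-box) in capitals. The Reln window, at chr5:22344706-22344955 on the minus strand, is 80.0% G and C with 37 CpG dinucleotides, and 7 of the 15 annotated transcripts start at it. The Vldlr window, at chr19:27216770-27217019 on the plus strand, is 66.4% G and C with 18 CpG dinucleotides and holds no match, and 2 of 8 transcripts start at it.
Reln: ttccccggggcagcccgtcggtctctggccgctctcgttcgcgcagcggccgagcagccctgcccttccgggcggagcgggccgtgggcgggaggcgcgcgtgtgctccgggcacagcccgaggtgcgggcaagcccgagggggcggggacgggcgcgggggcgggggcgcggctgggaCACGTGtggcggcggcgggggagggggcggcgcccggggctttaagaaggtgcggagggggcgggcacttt
Vldlr: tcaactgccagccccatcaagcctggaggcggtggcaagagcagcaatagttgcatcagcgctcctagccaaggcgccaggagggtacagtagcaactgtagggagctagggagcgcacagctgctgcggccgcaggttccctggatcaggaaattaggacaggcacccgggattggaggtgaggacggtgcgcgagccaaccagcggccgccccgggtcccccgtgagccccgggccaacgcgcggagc
The median of the 32851 windows of this length was 52.4% G and C with 6 CpG dinucleotides. On both strands CACGTG was present in 6.02% of windows, TCACACC (a T-box core) in 3.33% and TATAAA in 12.37%, and the last pair of motifs was absent from both windows shown. These data hold no measurement at promoters, and a match is a description of letters only.

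Reln, the ligand, was high in 6 of the 7 projection neuron types and low in ET4. Levels are in CPM, the UMIs of a gene scaled to a fixed total of 1000000 UMIs for the type and mouse. With mouse 1, 2 and 3 in order, M1 had 2104, 2387 and 2555, M2 had 2019, 2087 and 2017, and T1 had 1937, 2009 and 1887. ET2 had 1939, 1569 and 1872 and M3 had 1638, 1687 and 2003. These 5 types thus lay together at the top, with means of 2349 ± 228, 2041 ± 39.6, 1944 ± 61.1, 1794 ± 197 and 1776 ± 198 CPM (SD, n = 3 mice). ET1 followed with 711, 711 and 827 CPM (749.6 ± 67.0), and ET4 came last with 58.6, 70.5 and 106 CPM (78.4 ± 24.8), 29.9-fold under M1. No mouse of ET1 reached the level of any mouse of the 5 types above it, and no mouse of ET4 reached that of ET1.

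**Figure D1:**
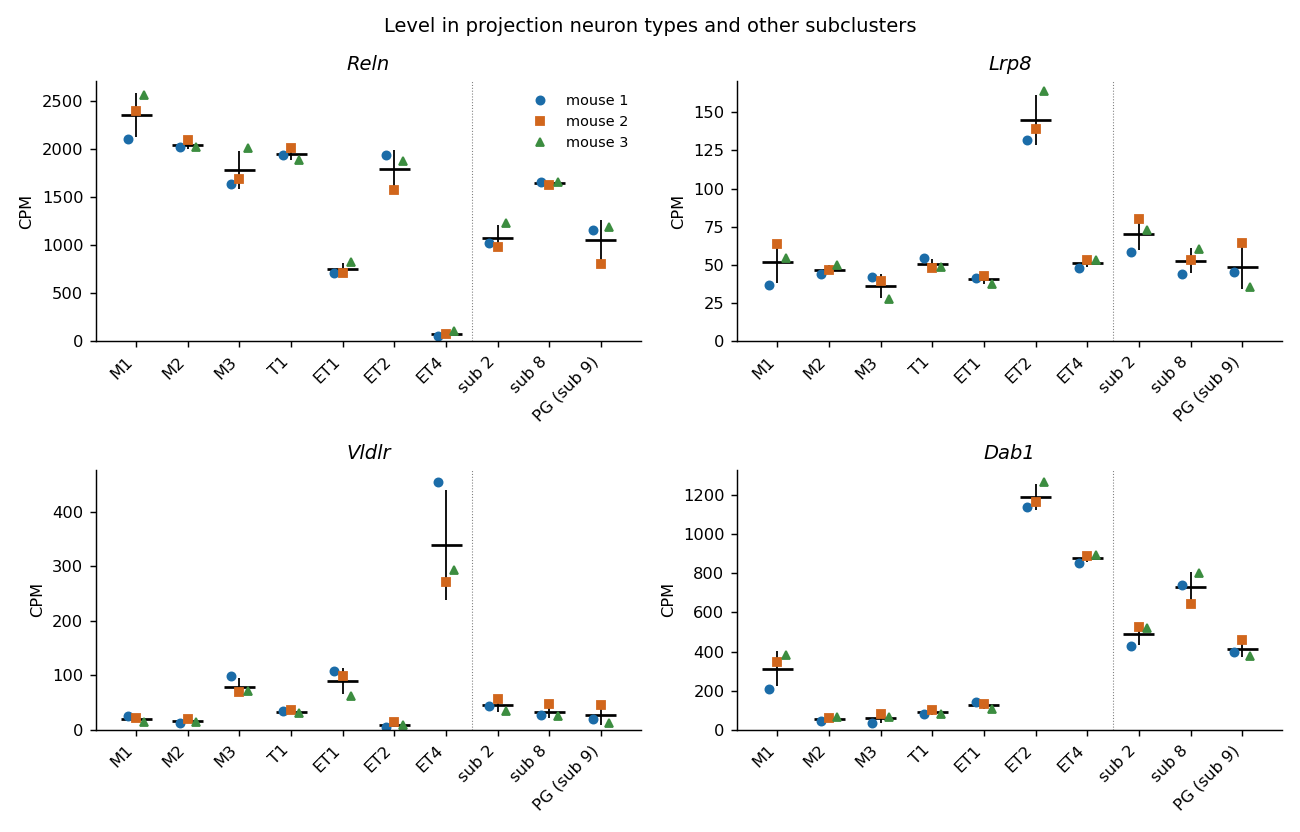
Level of Reln, Lrp8, Vldlr and Dab1 in CPM for the 7 projection neuron types and, right of the dotted line, subclusters 2, 8 and 9 (PG, periglomerular-like). Points are the 3 mice, bars the mean and vertical lines the SD; ET4 is lowest for Reln and highest for Vldlr, and ET2 is highest for Lrp8 and Dab1.

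The counts of each type and mouse were summed and tested with edgeR's quasi-likelihood test, with p-values adjusted by Benjamini-Hochberg over all genes. A gene was called where adjusted p was under 0.05 and the log2 fold change was past 1 in either direction. Tests of any difference among several groups had no fold threshold and were called on adjusted p alone. Because the clusters had been formed from the same counts, these p-values describe the clusters given and do not test whether they exist. Any difference among the 7 types was called for all 4 genes, as for 64.8% of the 14696 genes tested (adjusted p = 4.16e-15 for Reln, 1.43e-10 for Lrp8, 3.61e-15 for Vldlr and 6.91e-16 for Dab1). Over the 21 pairs of types, in which 7.71 to 27.9% of genes were called (16.4% over all pairs), Reln was called in 11, Lrp8 in 6, Vldlr in 15 and Dab1 in 16.

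The 11 pairs called for Reln were those with ET1 or ET4 on one side, and none of the 10 pairs among M1, M2, M3, T1 and ET2 was called. M1 and M2 did not overlap in CPM, but on the scaled counts of the test the log2 fold change was 0.04 with an SE of 0.17 (edgeR adjusted p = 0.899). ET1 was above ET4 by 3.45 ± 0.193 (adjusted p = 1.23e-12, edgeR), a pair in which 7.4% of genes were called higher. M3 was above ET1, a pair with 7.05% of genes called higher, by 1.00 ± 0.173, at the edge of the fold threshold, and the call was lost with mouse as a block (0.997), with no filter on low counts (0.99) and without mouse 3 (0.94). Against the mean of the other types, Reln was called higher in M1 (log2 fold change 1.29), M2 (1.24) and T1 (1.13, but 0.99 and not called on plain library sizes), where 7.81, 6.83 and 6.68% of genes were called higher, and lower in ET4 (-4.56 ± 0.188, edgeR adjusted p = 2.27e-16), where 9.32% of genes were called lower.

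Most nuclei of the top types held Reln. After thinning each nucleus to 2000 UMIs, so that depth did not set the share, at least 1 Reln UMI was left in 96.3 ± 3.42% of M1 nuclei (SD, n = 3 mice), 93.1 ± 1.84% of M2, 93.3 ± 2.31% of T1, 84.5 ± 2.60% of ET2, 77.5 ± 3.72% of M3 and 65.4 ± 4.27% of ET1. In ET4 the share was 8.30 ± 3.45%. Microglia-like nuclei, which should lack Reln, gave 15.3 ± 4.86% under the same thinning, above the ET4 share. That level was uneven, with 94.2% of the microglia-like Reln UMIs in the 10% of nuclei that had most. The other glia gave smaller shares. Over all mice 112 of 1128 astrocyte-like, 68 of 968 ensheathing glia-like, 22 of 281 oligodendrocyte-like and 6 of 151 precursor-like nuclei kept a Reln UMI. A lower floor came from 7 inhibitory-like clusters, at 2.98 to 4.48% of nuclei and 17.7 to 41.1 CPM. The mice of ET4 lay above all mice of those clusters in CPM, so ET4 was under the microglia-like floor and over this one. Before thinning the shares were 21.1% in ET4, at a median of 10419 UMIs, and 16.6% in microglia-like nuclei, at a median of 3405. The 10% of nuclei with the most Reln held 23.3% of the type's Reln UMIs in M2, 23.8% in T1, 27.0% in M1 and 32.4 to 33.4% in ET2, ET1 and M3. In ET4 they held 84.8%, so Reln was uneven there as in the microglia-like nuclei.

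Among the 10 inhibitory-like clusters, Reln was highest in 3. The mice had 366, 378 and 361 CPM in cluster 8, 326, 195 and 304 CPM in cluster 10 and 239.9, 235 and 272 CPM in cluster 17. The other 7 inhibitory-like clusters had means of 17.7 to 41.1 CPM, and no mouse of clusters 8, 10 or 17 fell as low as any mouse of those 7. With the same thinning, 30.4 ± 2.39% of nuclei in cluster 8, 28.6 ± 2.14% in cluster 10 and 29.4 ± 2.80% in cluster 17 kept a Reln UMI, above the microglia-like share of 15.3%, whereas the other 7 clusters, at 2.98 to 4.48%, were below that share. By level the microglia-like nuclei, at 135 to 603 CPM, overlapped clusters 8, 10 and 17. Against the mean of the other 20 clusters, cluster 8 was called higher (log2 fold change 1.30 ± 0.311, adjusted p = 0.0014, edgeR), as were 6.83% of genes, while cluster 10 (0.93 ± 0.331) and cluster 17 (0.80 ± 0.346) were not, where 5.69 and 7.96% of genes were. Any difference among the 21 clusters was called for each of the 4 genes, as for 86% of 16622 genes.

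In these clusters Reln was uneven between nuclei. The tenth of nuclei with the most Reln held 56.2% of the Reln UMIs of cluster 8, 51.5% of cluster 10 and 46.4% of cluster 17. In cluster 8, 192 of 1356 nuclei (14.2%) had at least 10 Reln UMIs, at similar shares in the 3 mice (14.35, 13.3 and 16.86%), and 777 had none. As a description of nuclei picked by their Reln count, the 192 nuclei together held 1734 CPM of Reln, 6566 CPM of the inhibitory neuron markers against 5549 in the 777 nuclei without Reln, and 245.3 CPM of the projection neuron markers against 154.4, where the projection neurons themselves averaged 984.2 CPM. Their median depth was 7130 UMIs against 8025. In cluster 10 only 24 nuclei had as many Reln UMIs, with 141.2 CPM of the projection neuron markers against 136.6 in the 547 nuclei without Reln, and 6625 against 7523 CPM of the inhibitory neuron markers. Clusters 8, 10 and 17 held 219.2, 171.6 and 153.0 Reln UMIs for each 100 projection-marker UMIs. Their mice ranged from 151.9 to 271.6, 138.7 to 286.5 and 132.5 to 217.3. The projection neurons held 178.1 when pooled, and their types ranged from 6.777 in ET4 to 287.5 in M1. The other 7 inhibitory-like clusters held 13.09 to 31.28 and the 5 glial ones 63.06 to 98.25. What part projection neuron RNA or nuclei have in the Reln of clusters 8, 10 and 17 was not tested.

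**Figure D2:**
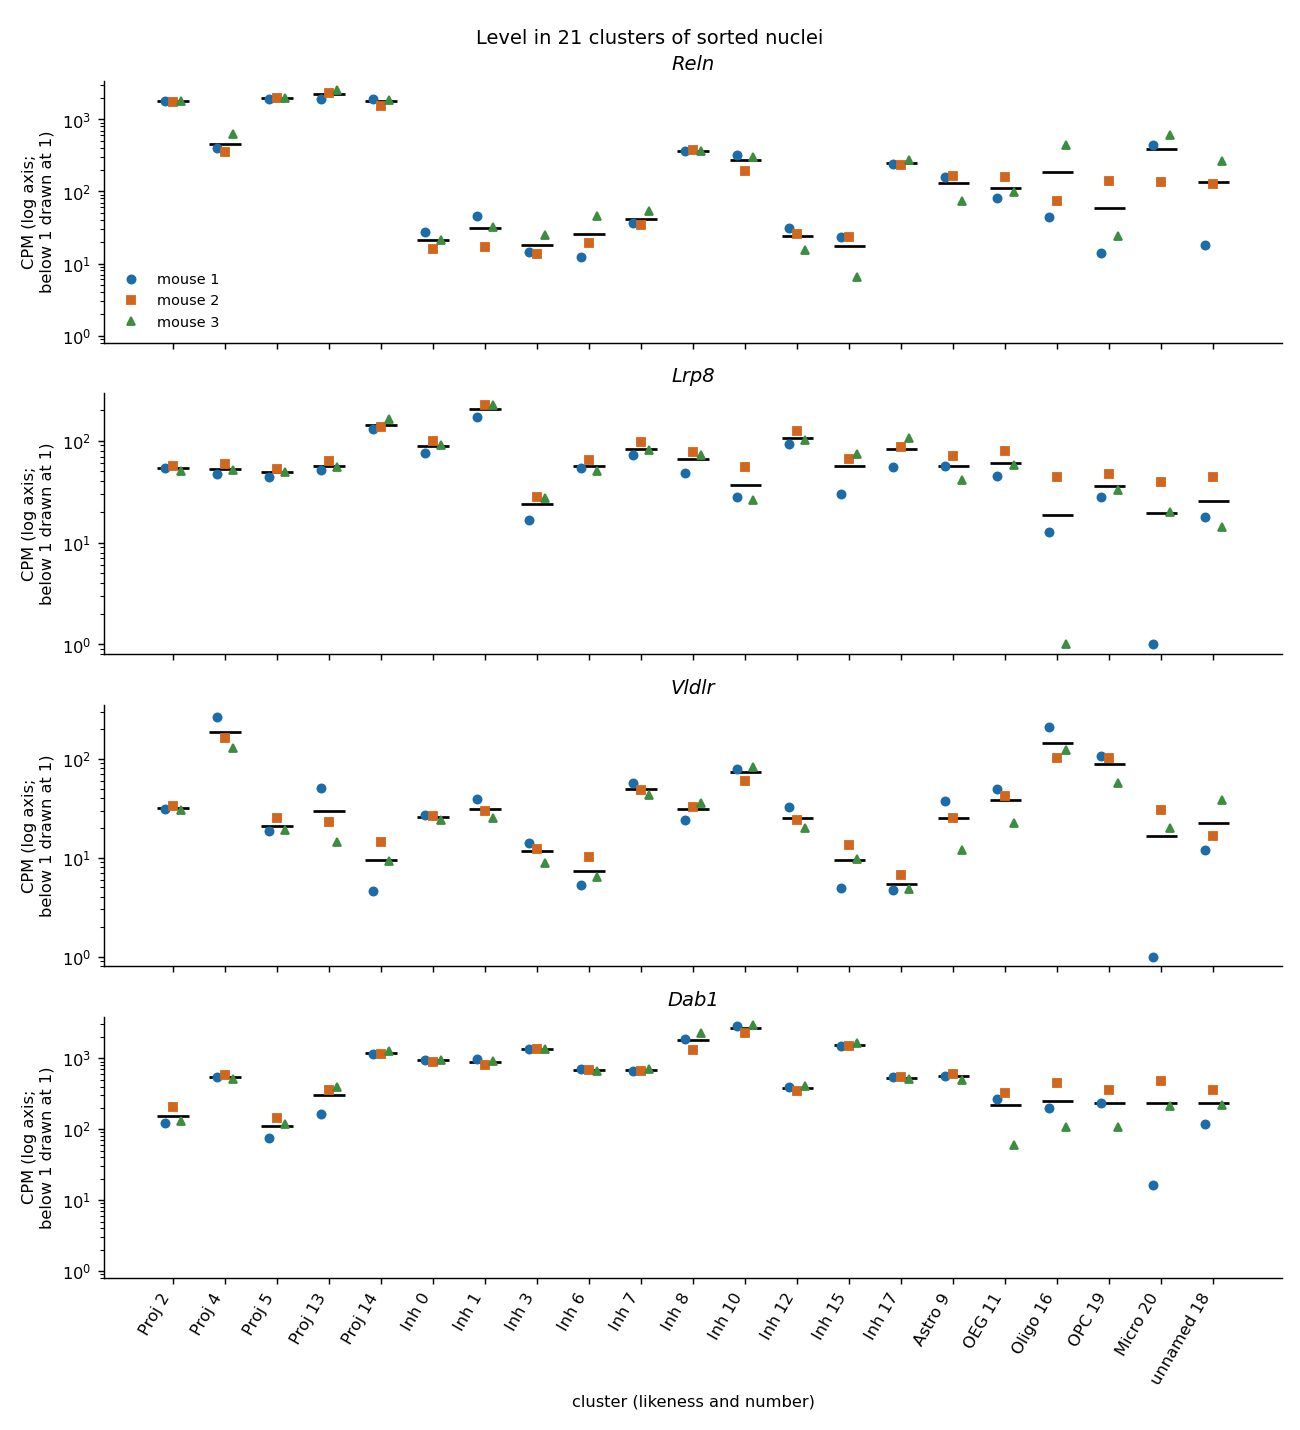
Level of each gene in CPM on a log axis for 21 clusters, ordered by the kind of nucleus they resemble (Proj, projection neuron; Inh, inhibitory neuron; OEG, olfactory ensheathing glia; OPC, oligodendrocyte precursor). Points are the 3 mice and bars their means. Inhibitory clusters 8, 10 and 17 stand above the other 7 for Reln, and the mean of Dab1 is 382 CPM or more in all 10.

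Summed over nuclei, the 6346 projection neuron nuclei together had 1641, 1673 and 1875 CPM of Reln. The 21325 inhibitory nuclei, in which the periglomerular-like subcluster 9 was included, had 77.6, 59.3 and 90.8 CPM. Projection neurons were thus 24.1-fold higher (log2 fold change 4.59 ± 0.172, edgeR adjusted p = 1.15e-06). Here 15.2% of the 18147 genes tested were called higher in projection neurons and 13.7% lower, and 65.8% had mice that did not overlap. The 89 nuclei of subcluster 9 held 1769 of the 12629 inhibitory Reln UMIs. Without clusters 8, 10 and 17, a choice made after seeing the data, the inhibitory level was 39.0, 27.9 and 39.4 CPM. Subcluster 9 was still included there and held 1769 of the 5157 Reln UMIs left. In glia Reln varied between mice, with 439, 135 and 603 CPM in microglia-like and 44.7, 73.9 and 436 CPM in oligodendrocyte-like nuclei. In the microglia-like nuclei the summed inhibitory neuron markers also varied, from 942.3 to 3217 CPM, and the projection neuron markers from 162.5 to 358.8 CPM; their part in the level of Reln was not tested.

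Lrp8, the receptor best known from synapses, was highest in ET2 among projection neurons. Its level in ET2 was 132, 139 and 164 CPM (145 ± 16.6), 2.80-fold over the next type, and no mouse of another type came near it. The other 6 types lay close together, with means of 51.8 ± 13.4 CPM in M1, 51.3 ± 3.02 in ET4, 50.4 ± 3.27 in T1, 46.9 ± 2.94 in M2, 40.5 ± 2.84 in ET1 and 36.3 ± 7.77 in M3. Neighbours in that order overlapped between mice except M2 and ET1. The 6 pairs called for Lrp8 were the 6 with ET2, and against the mean of the other types ET2 alone was called (log2 fold change 1.57 ± 0.103, adjusted p = 3.65e-12, edgeR), where 7.64% of genes were called higher. After thinning, 23.7 ± 1.44% of ET2 nuclei held Lrp8 against 6.38 to 11.6% in the other types and 2.04 ± 3.53% in microglia-like nuclei. ET2 also had, on average, the highest inhibitory neuron markers (774.6 to 1594 CPM) and astrocyte markers (283.5 to 336.5 CPM) of the 7 types, and their part in its Lrp8 was not tested.

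Inhibitory neurons carried more Lrp8 than projection neurons, with 80.2, 114 and 99.5 CPM against 51.1, 57.0 and 54.8 CPM. The mice did not overlap, as for 65.8% of the genes tested, and the difference of -0.78 ± 0.145 (adjusted p = 0.00239, edgeR) did not pass the fold threshold. Cluster 1 had the highest level of all clusters, at 171, 223 and 225 CPM (log2 fold change 2.03 ± 0.162 against the other clusters, adjusted p = 4.6e-15, edgeR), where 7.83% of genes were called higher, and cluster 14, a projection neuron-like cluster, followed with 1.41 ± 0.189, where 8.66% were. Within inhibitory neurons the range ran from 24.2 ± 6.56 CPM in cluster 3 to 206 ± 30.5 in cluster 1. The gene Lrp8os2 overlaps Lrp8 on the other strand, though not in exons, and was counted at 16.61 UMIs for each 100 of Lrp8. With intron counting and strand handling not given in the sources used here, the reads of the pair may not be separate.

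Vldlr, the receptor better known from neuronal migration, was highest in the type with least Reln. ET4 had the most, at 455, 271 and 293 CPM (339 ± 100.5), 3.79-fold over ET1 with 107, 99.4 and 61.7 CPM. M3 had 98.0, 68.9 and 70.9 CPM and T1 33.9, 36.0 and 30.6 CPM. M1 (20.3 ± 5.95 CPM), M2 (15.99 ± 3.77) and ET2 (9.50 ± 5.05) were lowest and overlapped, 35.7-fold separating ET2 from ET4. ET1 and M3 overlapped as well, whereas no mouse of ET4 was as low as any other type. Against the other types Vldlr was called higher in ET4 (3.34 ± 0.137, adjusted p = 2.19e-16, edgeR) and ET1 (1.32 ± 0.160), where 8.72 and 5.17% of genes were called higher, and lower in M1 (-1.36), M2 (-1.50) and ET2 (-2.30), where 4.04, 5.29 and 6.18% were called lower.

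The share of nuclei with Vldlr after thinning was 40.9 ± 10.5% in ET4, 13.5 ± 4.90% in ET1 and 13.4 ± 5.22% in M3, against 1.36 ± 2.36% in microglia-like nuclei. M2 (3.23%) and ET2 (2.10%) were within 1 SD of that background, as was the mean of M1 (2.17%), whose mice ranged from 0% (14 nuclei in mouse 1) to 6.02%. Outside the projection neurons Vldlr was found in the oligodendrocyte lineage, with 208, 102 and 122 CPM in oligodendrocyte-like and 108, 103 and 57.1 CPM in precursor-like nuclei (log2 fold change 2.34 ± 0.222 and 1.68 ± 0.246 against the other clusters, adjusted p = 3.14e-13 and 2.01e-07, edgeR; 9.68 and 9.65% of genes were called higher). These clusters are small, with 282 and 151 nuclei. Inhibitory neurons had 28.0, 26.4 and 24.1 CPM in all, with cluster 10 highest at 78.8, 60.2 and 81.7 CPM (1.48 ± 0.193, edgeR adjusted p = 1.28e-08, where 5.69% were called higher) and cluster 17 lowest at 5.41 ± 1.08. Projection neurons, at 79.0, 64.0 and 38.8 CPM, were above them (1.28 ± 0.225, adjusted p = 0.00176, edgeR). This was not general to the types, since the 883 ET4 nuclei held 3140 of the 6250 projection neuron Vldlr UMIs and the means of M1, M2 and ET2 lay below every mouse of the inhibitory neurons.

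**Figure D3:**
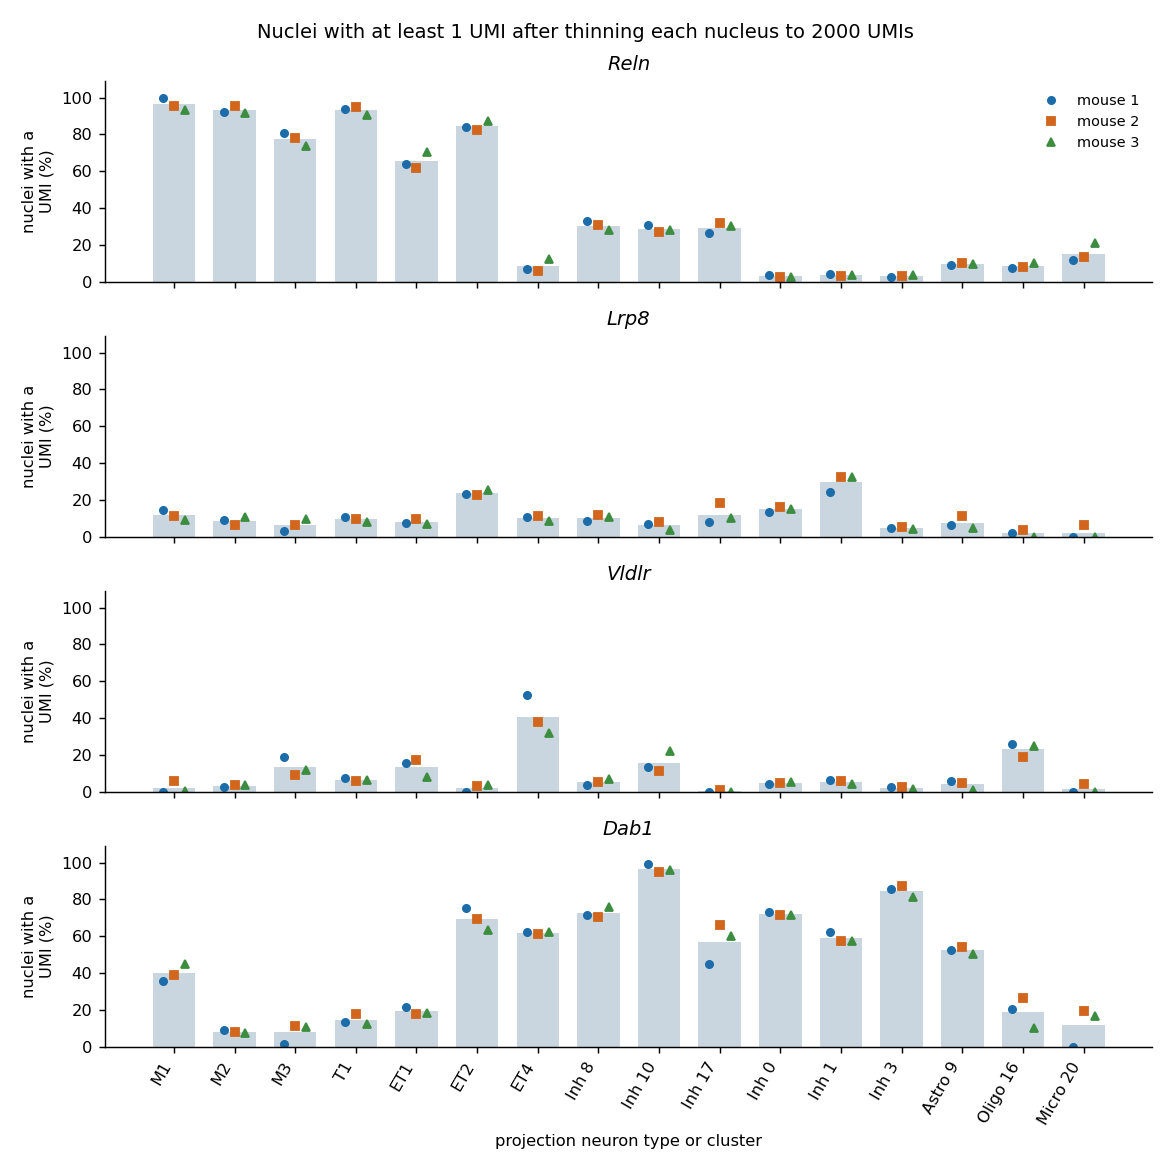
Share of nuclei with at least 1 UMI of each gene after each nucleus was thinned to 2000 UMIs, in percent, for the 7 projection neuron types and 9 clusters. Bars are the mean and points the 3 mice; Vldlr is found in 40.9% of ET4 nuclei, where Reln is at 8.30%, below its 15.3% in microglia-like nuclei (Micro 20).

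Dab1, the adaptor that both receptors need, split the projection neurons into a high and a low set. ET2 had 1139, 1161 and 1266 CPM (1189 ± 68.2) and ET4 had 852, 888 and 895 CPM (878 ± 23.2). M1 stood between, at 210.4, 348 and 380.3 CPM. ET1 (127 ± 18.3), T1 (89.0 ± 11.9), M3 (59.4 ± 24.7) and M2 (57.3 ± 9.99) formed the low set, in which only M3 and M2 overlapped. ET2 and ET4 did not overlap in CPM, but the test put them 0.48 ± 0.198 apart (adjusted p = 0.063, edgeR). Against the other types Dab1 was called higher in ET2 (2.91 ± 0.129) and ET4 (2.35 ± 0.132), where 7.64 and 8.72% of genes were called higher, and lower in M2 (-1.96), M3 (-2.18) and T1 (-1.25), where 5.29, 3.2 and 5.5% were.

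Within the mitral types, Dab1 separated M1 from M2 by 2.41 ± 0.215 (adjusted p = 4.78e-09, edgeR; 6.87% of genes were called higher), a pair that did not differ by the test in Reln, in Vldlr (0.12 ± 0.257, adjusted p = 0.803) or in Lrp8 (0.19 ± 0.144, adjusted p = 0.383). Inhibitory neuron markers moved with Dab1, from 156.3 to 300.6 CPM in M2 and 480.7 to 1059 CPM in M1 to 774.6 to 1594 CPM in ET2, though ET4, with high Dab1, had 211 to 497.9 CPM. Astrocyte markers had the same order, with means of 76.3 CPM in M2, 237.6 CPM in M1 and 316.6 CPM in ET2, and 83.5 CPM in ET4. The part of either list in the Dab1 levels was not tested. M1 rested on 14 nuclei in mouse 1, against 465 and 207 in the other mice. After thinning, 69.4 ± 6.07% of ET2, 62.0 ± 0.480% of ET4 and 39.9 ± 4.66% of M1 nuclei held Dab1. Microglia-like nuclei gave 12.02 ± 10.5%, above the shares of M2 (8.12%) and M3 (7.87%) and within 1 SD of those of T1 (14.6%) and ET1 (19.4%).

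In inhibitory neurons Dab1 was general, at 1097, 958 and 1184 CPM against 197, 305 and 232 CPM in projection neurons (-2.06 ± 0.170, 4.18-fold lower in projection neurons, adjusted p = 3.27e-05, edgeR). The lower level did not hold for every type. ET2, at 1139 to 1266 CPM, overlapped the inhibitory mice, and ET4, at 852 to 895 CPM, was above the means of inhibitory-like clusters 6, 7, 12 and 17 (382 to 683 CPM). All 10 inhibitory-like clusters had a mean of 382 CPM or more. Cluster 10 was highest, at 2876, 2255 and 2990 CPM with a thinned share of 96.8 ± 2.07%, and cluster 8 followed by its mean, at 1869, 1313 and 2287 CPM, overlapping cluster 15 (1490, 1506 and 1652 CPM) and cluster 3. Both were called against the other clusters (2.52 ± 0.230 and 1.86 ± 0.246, adjusted p = 1.66e-13 and 2.14e-08, edgeR; 5.69 and 6.83% of genes were called higher). In cluster 8 the 10% of nuclei with the most Dab1 held 55.0% of its Dab1 UMIs, against 27.3% in cluster 10. Cluster 17 had Reln with 531 CPM of Dab1, and cluster 3 had 1347 CPM of Dab1 with 17.8 CPM of Reln. Among glia, astrocyte-like nuclei had 557, 608 and 502 CPM and a thinned share of 52.3 ± 1.92%, with inhibitory neuron markers at 2103 to 3651 CPM, whose part in that level was not tested, whereas microglia-like nuclei ranged from 16.2 to 483 CPM.

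Placed side by side, the 4 genes were combined differently across the projection neuron types. ET4 had Vldlr and Dab1 with low Reln. ET2 had Reln, the highest Lrp8 and Dab1, and the lowest Vldlr. M1 had Reln with an intermediate level of Dab1, M2 and T1 had high Reln with low Dab1, and M3 and ET1 had Reln with a middle level of Vldlr. At full depth 87.05% of ET2 nuclei and 80.3% of M1 nuclei held both Reln and Dab1, close to the products of the single shares (85.4 and 79.6%). After thinning 61.4 and 38.8% did, against 14.7% of T1, 12.8% of ET1, 7.83% of M2, 7.52% of M3 and 3.17% of ET4 nuclei. Across the 7 types the correlation of log levels was -0.858 between Reln and Vldlr, -0.476 between Reln and Dab1, 0.732 between Lrp8 and Dab1 and 0.075 between Vldlr and Dab1. These are descriptions over 7 points that share 3 libraries, and over the 21 clusters the values were 0.056, -0.319, 0.368 and -0.125.

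**Figure D4:**
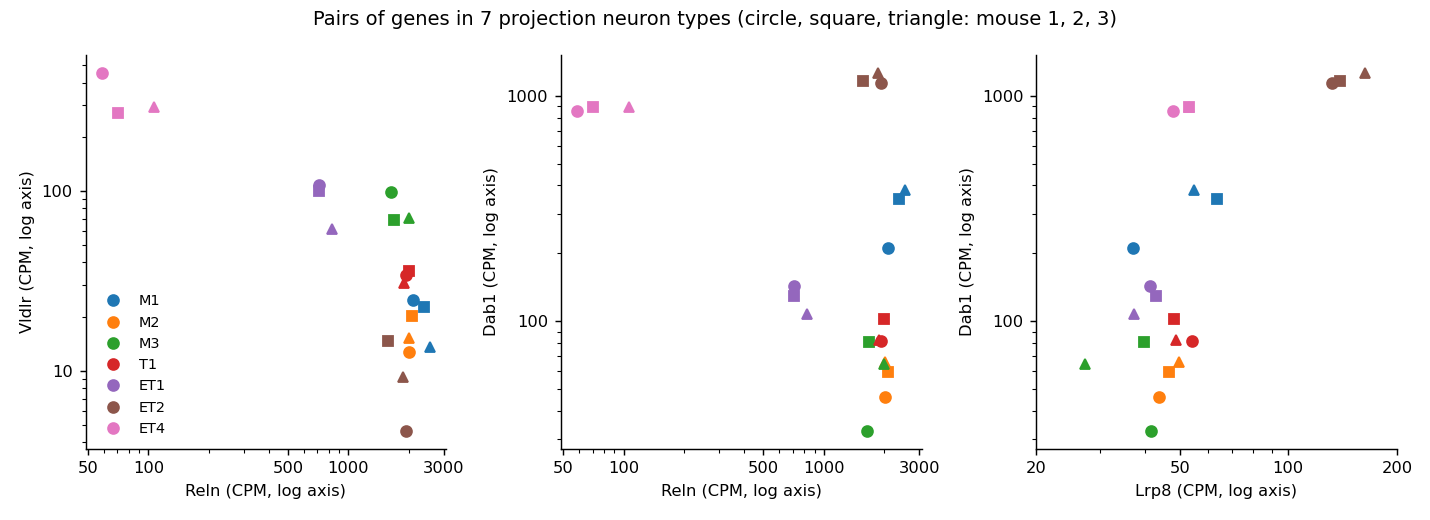
Levels in CPM on log axes of Vldlr against Reln, Dab1 against Reln and Dab1 against Lrp8 in the 7 projection neuron types. Colours are types and circle, square and triangle mouse 1, 2 and 3; the 3 ET4 points have the least Reln with the most Vldlr, and the 3 ET2 points the most Lrp8 and Dab1.

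The 3 excitatory subclusters outside the 7 types had both Reln and Dab1, and 2 of them also had inhibitory neuron markers. These markers summed to 2382 to 3153 CPM over the mice in subcluster 2 and 1706 to 2656 CPM in subcluster 9, against 250.1 to 835.9 CPM in subcluster 8 and 86.12 to 241.3 CPM in T1, and subcluster 8 had the highest astrocyte markers of the subclusters, 311.8 to 839.2 CPM against 38.93 to 51.39 CPM in T1. The part of either list in the Dab1 of the subclusters was not tested. Subcluster 8, with 126 nuclei, had 1650.4, 1622 and 1652 CPM of Reln and 741, 643 and 799 CPM of Dab1. Subcluster 2, with 943 nuclei, had 1017, 976 and 1229 CPM of Reln and 426, 525 and 521 CPM of Dab1. Their Dab1 means of 728 ± 79.1 and 491 ± 56.1 CPM lay between those of M1 and ET4, and after thinning 67.4 ± 4.61 and 52.4 ± 3.05% of nuclei held Dab1. In the periglomerular-like subcluster 9, where mice 1 and 3 gave 9 and 8 nuclei, Reln was at 1158, 807 and 1184 CPM. Subcluster 9 was thus above every inhibitory-like cluster in Reln, and it also had the projection neuron markers given above, whose part in that level was not tested.

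Among the 5 projection neuron-like clusters of the full set, cluster 4 was the one with little Reln and much Vldlr. Its Reln was 398, 351 and 624 CPM, against means of 1776 to 2276 CPM in clusters 2, 5, 13 and 14. Its Vldlr was 267, 162 and 129 CPM, against means of 9.38 to 31.6 CPM in those clusters, and was the highest of all 21 clusters on average. The subclusters divide the nuclei of these 5 clusters again, so this pattern is not a separate observation from that of the types above. In the remaining glia, Lrp8 was at 56.3 ± 14.6 CPM in astrocyte-like and 60.9 ± 17.4 CPM in ensheathing glia-like nuclei, close to its level in most projection neuron types, with inhibitory neuron markers at 2103 to 3651 and 1745 to 3334 CPM, whose part in these levels was not tested, and at 18.9 ± 22.6 CPM in oligodendrocyte-like nuclei, where 1 mouse had no Lrp8 UMI.

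The contrast of the 3 mitral with the 4 tufted types asks whether the pathway follows the main division of OB projection neurons. Reln was called higher in mitral types (log2 fold change 1.59 ± 0.0929, adjusted p = 5.23e-13, edgeR), as were 5.53% of the 14696 genes. Dab1 (-1.65 ± 0.122, adjusted p = 4.84e-11) and Vldlr (-1.04 ± 0.144, adjusted p = 2.58e-06) were called lower in them, as were 3.81% of genes, and Lrp8 (-0.44 ± 0.0872, adjusted p = 0.00028) did not pass the fold threshold. For all 4 genes the mitral and tufted values overlapped, as they did for all but 103 genes (0.701%). Without ET4, an alternative chosen after seeing the data, Reln was 0.51 (adjusted p = 0.00028) and Vldlr -0.23 (adjusted p = 0.334), and neither was called. The Vldlr call was also lost without M1 (-0.75), M2 (-0.69) or ET1 (-0.81), without mouse 1 (-0.99) and with DESeq2 (-0.99). Dab1 was -1.21 without ET4 and -1.05 without ET2, and was still called each time.

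The wider pathway was followed with a list of 71 genes. Any difference among the 7 types was called for 57 of the 65 that were tested (87.7%, against 64.8% of all genes), and among the 8 not called were Crk, Crkl, Cdk5, Gsk3b and Pafah1b1. In the mitral and tufted contrast 9 of the 65 were called (13.8%, against 9.34% of all genes), 3 higher and 6 lower in mitral types, with a median log2 fold change of -0.05 beside -0.03 for all genes. Without mouse 2, 5 were called higher and 4 lower. The higher genes included the integrin subunit Itga3 (1.36 ± 0.170) and the protease Adamts5 (1.22 ± 0.240). Lower were the ephrin receptors Ephb1 (-2.60 ± 0.219, adjusted p = 5.14e-10, edgeR) and Ephb2 (-1.38 ± 0.258), the NMDA receptor subunit Grin2a (-1.75 ± 0.242), the semaphorin co-receptor Nrp1 (-1.38 ± 0.115), the protease Adamts2 (-1.23 ± 0.248) and Thbs1, a further ligand of the receptors (-2.22 ± 0.668), which did not exceed 7.26 CPM in any library. None of the 5 Src-family and Abl kinases, the 12 Dab1 partners or the 12 genes from PI3 kinase to the cytoskeleton was called.

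Between projection and inhibitory neurons, 25 of 69 tested genes of the list were called (36.2%, against 29% of all genes), 9 higher and 16 lower in projection neurons, with a median of -0.06 beside 0.01 for all genes. Of the proteases that can cleave Reelin, 4 of 5 were called: Adamts2 was higher in projection neurons (11.1 against 1.27 CPM, 3.24 ± 0.263), and Adamts3 (4.71 against 104 CPM, -4.35 ± 0.257, adjusted p = 6.29e-06, edgeR), Adamts5 (4.55 against 28.7 CPM) and Plat (3.84 against 24.0 CPM) were lower. Adamts3, a protease known to inactivate Reelin, thus had its higher level in the nuclei with little Reln. Among the co-receptors and turnover genes 5 were higher and 1 was lower of 11, led by Nrp1 (329 against 12.5 CPM, 4.81 ± 0.225, adjusted p = 2.49e-06, edgeR), Itga3 (14.2 against 2.36 CPM), Mylip, a ubiquitin ligase that degrades Vldlr and Lrp8 (12.9 against 4.12 CPM), and Efnb2 (59.6 against 23.7 CPM).

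Downstream of the receptors, 4 of the 12 Dab1 partners were called (1 higher, 3 lower in projection neurons), 2 of the 12 genes from PI3 kinase to the cytoskeleton (1 higher, 1 lower) and 1 of the 6 nuclear migration genes (lower), where 13.7% of all genes were called lower and 15.2% higher. Of the 5 Src-family and Abl kinases 3 were lower, namely Fyn, the main kinase of Dab1 (108.2 against 324 CPM, -1.51 ± 0.0887), Yes1 (20.9 against 136 CPM) and Abl2 (105 against 360.3 CPM). The small GTPases Rap1a (43.8 against 171 CPM) and Rap1b (26.6 against 97.8 CPM) were lower too. Of the 5 synaptic partners, Grin2a (84.0 against 662 CPM), Grin2b (372 against 1538 CPM) and Dlg4 (39.4 against 84.3 CPM) were lower. Mtor, a kinase downstream of PI3 kinase, was higher (172 against 60.5 CPM, 1.58 ± 0.0846). Fyn, Abl2 and Dlg4 are outside the 8 largest changes in their direction and were singled out after their values were seen, as were the genes listed above as not called.

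**Figure D5:**
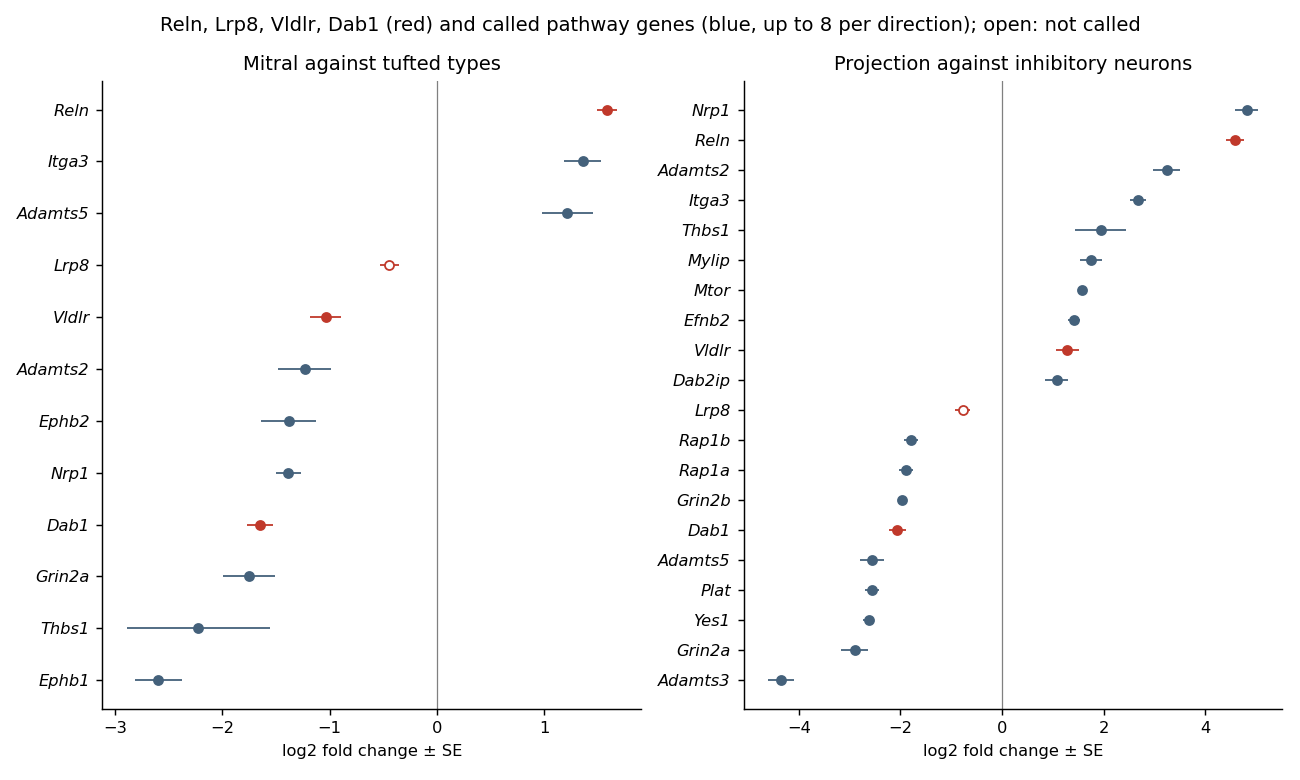
Log2 fold change with its SE (edgeR) for Reln, Lrp8, Vldlr and Dab1 in red and for pathway genes called in each contrast in blue, up to 8 in each direction with 1 left out. Positive values are higher in mitral types (left) or in projection neurons (right), and the open Lrp8 points were not called.

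The genes whose log levels followed each member most closely were listed by Pearson's r, as a description without a test. Over the 21 clusters and 12234 genes, Reln was followed by Gm10475 (0.927), Ptprd (0.901), Atp6ap1l (0.886), Ints3 (0.878) and Gm2464 (0.877). Gm10475 overlaps exons of Reln on the other strand and was counted at 3.623 UMIs for each 100 of Reln, so its reads may not be separate. Lrp8 was likewise led by its own antisense neighbour Lrp8os2 (0.911), followed by Zfp2 (0.766), Wdr78 (0.756), Zfp146 (0.754) and Gm26803 (0.751). Vldlr and Dab1 had no such overlapping neighbour at the top: Tmem97 (0.756), Cldn34c1 (0.753) and Jam3 (0.740) led for Vldlr, and Nip7 (0.815), Dlg3 (0.810) and Rundc3a (0.793) for Dab1. Over the 7 types and 8879 genes the closest were Fam220a for Reln (0.988), Kdm5c for Lrp8 (0.992), Ing3 for Vldlr (0.988) and Dscam for Dab1 (0.977).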

How the data were processed

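Nuclei of 3 mice were profiled with 10x Genomics Chromium 3′ v3 chemistry, and the authors deposited for each mouse a matrix of UMI counts, for which the file headers give Cell Ranger 3.0.2, on mm10 (GRCm38), per the submitters' processing notes. The deposited table of nuclei gives each nucleus its mouse, cluster and subcluster as other columns, which the authors had made by keeping nuclei with at least 1000 genes and at most 5% mitochondrial counts, merging the mice and clustering in Seurat at resolutions of 0.3 and 0.5. Its 7 other numeric columns per nucleus were not used. Annotation release, intron counting and strand were not given in the sources used here. No doublet caller was run: the nuclei the authors kept were used.

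Raw counts were summed by mouse and type, class or cluster, leaving out sums of fewer than 10 nuclei, and tested in edgeR 4.0.16 (R 4.3.3) with TMM factors, filterByExpr, glmQLFit and glmQLFTest. Types, clusters and the 2 classes each had a fit of their own. CPM were taken on the raw totals. SE is the log2 fold change over the square root of F. Shares came from nuclei thinned to 2000 UMIs, leaving out shallower ones, and correlations from log2(CPM + 5). The fits were tested on simulated data. Subclusters were named where at least 3 of a type's markers each had at least 50% of their CPM in the highest subcluster. For clusters the limit was 25% of the CPM in the highest cluster. Named pathway genes were the 8 with the largest change in each direction among those called; 1 of them is not reported here. The members and lists were chosen with earlier results of these data known. Libraries of 1 mouse come from the same animal: deviations from the type means correlated at 0.108 within a mouse, over 63 pairs, and at -0.0535 between mice; for the 2 classes the values were 0.281, over 3 pairs (0.222 to 0.335), and -0.141. The mice were separate animals in a single experiment. The main fits had no term for the mouse, so p-values measure the spread between libraries of a group, pooled over groups that share mice.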

Additional observations from a re-analysis of the deposited data

How the results depend on the processing

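Alternatives were library size in place of TMM factors, DESeq2 1.42.0, no filter on low counts, mouse as a block and leaving out each mouse; leaving out types or clusters was added after seeing the data. Of the values for the main comparisons under these settings, 206 were kept and 7 lost the call in the same direction. A gene's test was kept where its call, and its direction if it had one, stayed. The 206 also include numbers of genes called, which were kept where they changed little. For Vldlr between mitral and tufted types the fold threshold was missed with DESeq2 (-0.99) and without mouse 1 (-0.99; range over the mice left out -1.04 to -0.99), and without M1 (-0.75), M2 (-0.69), ET1 (-0.81) or ET4 (-0.23); without T1, ET2 or M3 it was called. For Reln the call was lost without ET4 (0.51). With mouse as a replicate block the mitral and tufted differences were 1.58 for Reln, -1.02 for Vldlr and -1.66 for Dab1, and the block changed no call of the 4 genes there or between projection and inhibitory neurons. Of the values for single types and clusters against the others, 310 kept call and direction, Vldlr in M3 was called only without mouse 2 (1.11) and Reln in T1 lost its call with library sizes (0.99). Lrp8 in T1 against the other types, -0.020, turned to 0.027 with no filter, and without 1 mouse it ranged from -0.095 to 0.035. Levels taken as the mean of single nuclei were 0.734 to 1.46 times those of the summed counts. Thinning to 4000 UMIs or not at all raised the shares. With 3 mice, M1 at 14 nuclei in mouse 1 and the small glial clusters are the least exact.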
